A study of Mus musculus with 9 samples.

Results

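The guanylate-binding protein (Gbp) genes of the mouse were followed in brain tissue after a viral injection. Members were the genes whose GENCODE M21 symbol is Gbp with a number and an optional letter, matched by Ensembl identifier, and 11 of the 1710 listed genes met this. The samples were wild-type (WT) mouse tissue labelled "brain ctx", collected 10 days after a stereotaxic injection, that is, one aimed at a set point of the brain, from the place that received the virus. The 9 libraries fall into PBS (a buffered salt solution), LowDose and HighDose, with 3 libraries each, and the series text names AAV9, an adeno-associated virus used to carry genes into cells. Neither the amount behind each dose name nor the vector's promoter and cargo is given in the labels used here. The labels do not say if each library stands for 1 animal, and all errors and p-values below therefore describe the spread between libraries, which may be technical.

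Guanylate-binding proteins are large GTPases of the dynamin superfamily that cells make in quantity when interferon reaches them, above all interferon gamma. They assemble on the membranes of intracellular bacteria and of the vacuoles in which parasites live, and they help to release microbial material to inflammasomes, the complexes that activate inflammatory caspases. In mice, loss of the chromosome 3 cluster leaves the animals more susceptible to the parasite Toxoplasma gondii.

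Library totals were 18.3 to 23.7 M (M, 1e6). The table is a selection: group means lay 2-fold or more apart somewhere for all 1710 listed genes, and for 1581 of them between HighDose and PBS. A test of HighDose on these genes therefore asks in part what the selection had already asked. Of the neuron markers 0 of 4 were listed, so the cortical label could not be checked with them, whereas 5 of 5 markers of striatal neurons were listed, with a summed level of 200.4 to 228 CPM (counts per 1e6 of the library total) in HighDose, against 554 to 832 CPM in PBS. Summed T cell markers (6 of 7 listed) reached 7.44 to 18.4 CPM in HighDose, against 0.194 to 0.599 CPM in PBS, where Cd3d was at 0. Summed NK cell markers (4 of 4) reached 25.5 to 43.2 CPM in HighDose, against 0.0484 to 0.231 CPM in PBS, and those of monocytes and macrophages (4 of 5) 117 to 181 CPM, against 13.2 to 22.8 CPM. That sum was carried by Ly6c2, at a mean of 86.9 CPM in HighDose and 0.135 CPM in PBS, and by Lyz2, while Cd163 of the same list fell (log2 change -1.59, adjusted p = 0.0025, edgeR). Those of B cells (3 of 3) reached 2.32 to 4.07 CPM in HighDose, against 0.109 to 0.339 CPM in PBS. Among markers of resident cells, the levels were 75.4 to 82.1 CPM in HighDose against 57.0 to 70.9 CPM in PBS for microglia (3 of 8). Among these P2ry12 fell (mean 19.5 CPM in HighDose and 38.3 CPM in PBS, adjusted p = 9.04e-05, edgeR), while Aif1 and Tmem119 rose by 2.27 and 1.05 on the log2 scale, where Tmem119 instead fell with TMM, a scaling that takes most genes as unchanged. The astrocyte gene Gfap (1 of 5) lay at 374 to 534 CPM in HighDose, against 113 to 146 CPM in PBS. The endothelial gene Ly6c1 (1 of 5) lay at 67.1 to 86.4 CPM in HighDose, against 26.1 to 44.4 CPM in PBS. Oligodendrocyte markers (2 of 4) lay at 641 to 864 CPM, against 1253 to 1716 CPM. With TMM, Ly6c1 instead fell in HighDose against PBS (log2 change -0.58, adjusted p = 0.00994, edgeR). Gfap (0.14) and Lyz2 (-0.05) were then not called. The part of these cell types in the results that follow was not tested. In bulk tissue, more cells of a type and more RNA per cell cannot be told apart.

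The 11 genes lie in 2 clusters. On build mm10 (GRCm38), Gbp5, Gbp7, Gbp3, Gbp2b and Gbp2 follow each other on the plus strand of chr3:142493978-142638008, a stretch of 144 kb. Gbp8, Gbp9, Gbp4, Gbp10, Gbp6 and Gbp11 lie on the minus strand of chr5:105014150-105346472, a stretch of 332 kb. In GENCODE M21, 10 are protein-coding genes and Gbp11 is a polymorphic pseudogene, a gene intact in some strains and broken in others. The deposited symbol column did not separate them. Gbp3 and Gbp7 were both listed there as Gbp4, Gbp2b as Gbp1, and the chromosome 5 members all as GBP6.

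RefSeq promoter windows (250 bases before to 50 after a start site, GRCm38.p6) were matched for 5 of the 11 genes, those on chromosome 3. Each of the 5 held the core of an interferon-stimulated response element (ISRE), searched on both strands as GAAANNGAA followed by a further A, whereas 3.99% of 27025 genes with such a window held it. The looser core GAAANNGAA alone, which lies within it, was in 5 of 5 and in 9.76% of genes. The core of a gamma-activated site, TTCNNNGAA, was in the windows of Gbp5 and Gbp7 and in 9.55% of genes. ISREs are bound by interferon-induced factors, so the 60 bases up to the match are shown for each gene, 5′ to 3′ on the plus strand with the match, which lies on the other strand, in capitals. A match of letters is not a measured binding site.
Gbp5, chr3:142496719-142496778: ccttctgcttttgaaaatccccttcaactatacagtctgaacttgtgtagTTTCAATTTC
Gbp7, chr3:142530233-142530292: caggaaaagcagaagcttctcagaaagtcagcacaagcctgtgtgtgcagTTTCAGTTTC
Gbp3, chr3:142559955-142560014: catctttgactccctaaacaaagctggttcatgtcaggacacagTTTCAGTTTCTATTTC
Gbp2b, chr3:142594660-142594719: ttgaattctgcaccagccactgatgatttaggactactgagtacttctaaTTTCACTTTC
Gbp2, chr3:142620554-142620613: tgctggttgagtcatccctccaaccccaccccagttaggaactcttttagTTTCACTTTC
The match lay at positions -53 to -44 relative to the RefSeq start site in Gbp7 and at -59 to -50 in Gbp2. In GENCODE M21, however, Gbp2 begins at chr3:142620602, before its match, and 12 of the 60 bases shown for it lie in an annotated exon. Gbp3 had a pair of overlapping matches, at -45 to -36 and at -39 to -30. In Gbp5 and Gbp2b the match lay further from the start site, at -165 to -156 and at -137 to -128.

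In HighDose, each tested member of the family rose. Of the 11 members, 10 passed the low-count filter and 10 of these 10 rose against PBS (edgeR's quasi-likelihood test with Benjamini-Hochberg adjustment, adjusted p between 1.54e-23 and 1.07e-14). The same direction was called for 86.3% of all 1583 tested genes, so the count of members is close to that background. Gbp8, Gbp10 and Gbp11 passed the filter through the HighDose libraries alone and so had to differ. The 7 members that pass it without HighDose had a median log2 change of 5.77 (4.15 to 6.72), against 1.90 over all tested genes, and 7 of 7 lay above 4, against 20.4% of tested genes. With the other 3 the median was 6.08. In 10 of 10 members every HighDose library lay above every PBS library, as in 85.8% of tested genes. With TMM scaling the median over all genes was 0.19 and the calls split into 600 higher and 464 lower, in place of 1366 and 169. The median of the 10 members was then 4.36, and 10 of 10 rose. Since a scaling moves all genes by nearly the same amount, their distance from the median of all genes changes little by construction (4.18 with library totals and 4.17 with TMM).

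**Figure D1:**
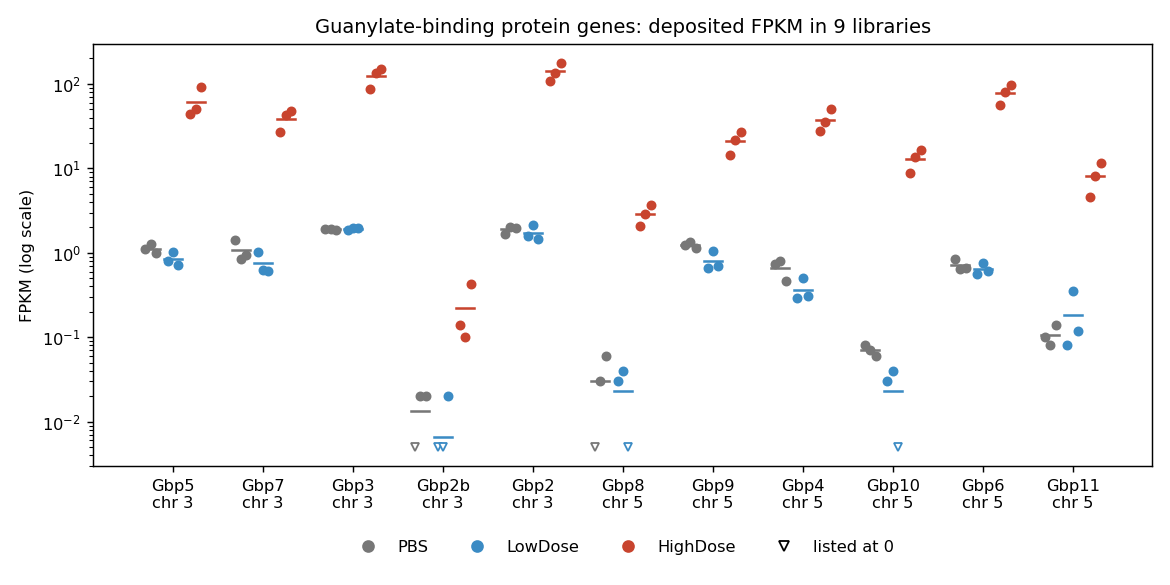
FPKM (log axis) of each member in the 9 libraries, with dots for libraries, short lines for group means and open triangles for values listed at 0, in the order of the genes along chromosomes 3 and 5. The HighDose dots of each gene sit above its PBS and LowDose dots, from 0.10 to 0.43 FPKM for Gbp2b up to 109 to 176 FPKM for Gbp2.

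The chromosome 3 members include those that carry a prenyl anchor in mice, Gbp2, Gbp5 and Gbp2b. Gbp2, which mouse cells target to Toxoplasma vacuoles and to cytosolic bacteria, was at 274, 341 and 442 CPM in HighDose replicates 1 to 3, against 4.25, 5.04 and 4.98 CPM in PBS. Its lowest HighDose library stood far above its highest PBS library, and its log2 change was 6.21 ± 0.28 (SE, adjusted p = 1.99e-23, edgeR). Gbp5, known for its part in inflammasome activation, was at 136, 156 and 283 CPM in HighDose, against 3.38, 3.97 and 3.18 CPM in PBS. HighDose replicate 3 stood out for this gene, with 1.81 times the level of replicate 2, and the log2 change was 5.77 ± 0.29 (adjusted p = 6.93e-22, edgeR). Gbp2b, also called Gbp1 and 82.5% identical to Gbp2 in coding sequence, did not pass the filter and was not in the test above. Its counts were 9, 6 and 28 in HighDose, against 0, 1 and 1 in PBS. The groups did not overlap, and the summed 43 and 2 counts gave a ratio of 19.5 with a 95% counting interval of 5.09 to 166, which covers counting error only. In the fit without a filter it was called higher (log2 change 4.05 ± 0.99, adjusted p = 0.000184, edgeR), a value that depends on how the fit treats such low counts.

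Gbp3 and Gbp7 form the other part of the chromosome 3 cluster and were each other's closest relatives in coding sequence, with 78.3% identity. Gbp3 was at 215, 337 and 368 CPM in HighDose, against 4.91, 4.99 and 4.98 CPM in PBS, a log2 change of 5.95 ± 0.27 (adjusted p = 2.94e-23, edgeR). The PBS libraries were close together, and HighDose replicate 1 was the low one of its group. Gbp7 was at 131, 209 and 236 CPM in HighDose, against 6.38, 4.79 and 5.35 CPM in PBS, with a log2 change of 5.12 ± 0.27 (adjusted p = 3.40e-21, edgeR). This was the smallest change among the tested members of the cluster, and the groups did not overlap.

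On chromosome 5, Gbp6 changed with the smallest p of the family. Mouse Gbp6, like Gbp9, gathers at Toxoplasma vacuoles. It was at 191, 280 and 335 CPM in HighDose, against 2.79, 2.45 and 2.41 CPM in PBS, with no overlap and a log2 change of 6.72 ± 0.29 (adjusted p = 1.54e-23, edgeR). Gbp9 was at 61.9, 95.6 and 118 CPM in HighDose, against 5.40, 5.18 and 4.93 CPM in PBS. This was the smallest change of the 10 tested members, 4.15 ± 0.26 on the log2 scale (adjusted p = 1.55e-18, edgeR). Per length, its PBS level lay above that of Gbp6 in each PBS library, at 1.23, 1.34 and 1.13 FPKM for Gbp9 and 0.85, 0.64 and 0.66 FPKM for Gbp6. Gbp4 was at 92.0, 122 and 168 CPM in HighDose, against 2.78, 2.71 and 2.07 CPM in PBS, a log2 change of 5.66 ± 0.29 (adjusted p = 8.06e-22, edgeR).

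The other chromosome 5 members were close to silent in PBS. They passed the filter through the HighDose libraries alone, so their p-values are no independent support for a rise. Gbp10 was at 30.9, 48.3 and 58.4 CPM in HighDose, against 0.275, 0.259 and 0.219 CPM in PBS. Its fitted log2 change of 7.50 ± 0.37 (adjusted p = 2.58e-22, edgeR) was the largest of the tested members and rests on 15.1 estimated counts summed over PBS. Gbp11 was at 11.7, 21.9 and 30.4 CPM in HighDose, against 0.273, 0.145 and 0.231 CPM in PBS, a log2 change of 6.60 ± 0.44 (adjusted p = 9.52e-18, edgeR). For both, the PBS values lie near the level of 3 counts, which is 0.138 to 0.164 CPM in the PBS libraries. Gbp8 was at 5.04, 7.08 and 9.01 CPM in HighDose, against 0, 0.0484 and 0.0922 CPM in PBS. Its 3 PBS counts against 471 HighDose counts gave a ratio of 142.5 with a 95% counting interval of 48.5 to 694, and the fitted log2 change of 7.0 ± 0.58 (adjusted p = 1.07e-14, edgeR) depends on how the fit treats such low counts.

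The LowDose libraries did not share the rise. Of the 10 tested members 0 were called in either direction against PBS (edgeR's quasi-likelihood test with Benjamini-Hochberg adjustment, smallest adjusted p 0.321), and among all tested genes 0.442% were called higher and 2.15% lower. At an unadjusted p under 0.05 there were 5 members, 4 lower and 1 higher, where 7.83% of all tested genes were lower and 3.85% higher. Gbp10 and Gbp11 are among the 5 and were in the test through HighDose alone. With only LowDose and PBS in the fit 7 members were tested and 3 of them, Gbp4, Gbp7 and Gbp9, were at that level, with log2 changes of the 7 from -0.61 to -0.12. DESeq2 gave 3 members at that level and limma on log2(FPKM + 0.5) gave 0. The edgeR number was 1 without PBS replicate 1, without PBS replicate 2 or without LowDose replicate 3, and 3 without LowDose replicate 1 or LowDose replicate 2. The median log2 change of the members was -0.32, and -0.41 for the 7 that pass the filter without HighDose, against -0.03 over all tested genes. Of the members 8 of 10 had a value below 0, as had the larger part of all tested genes, whose median is negative. Summed markers of striatal neurons were at 205 to 453 CPM in LowDose, against 554 to 832 CPM in PBS, and their part in these values was not tested.

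**Figure D2:**
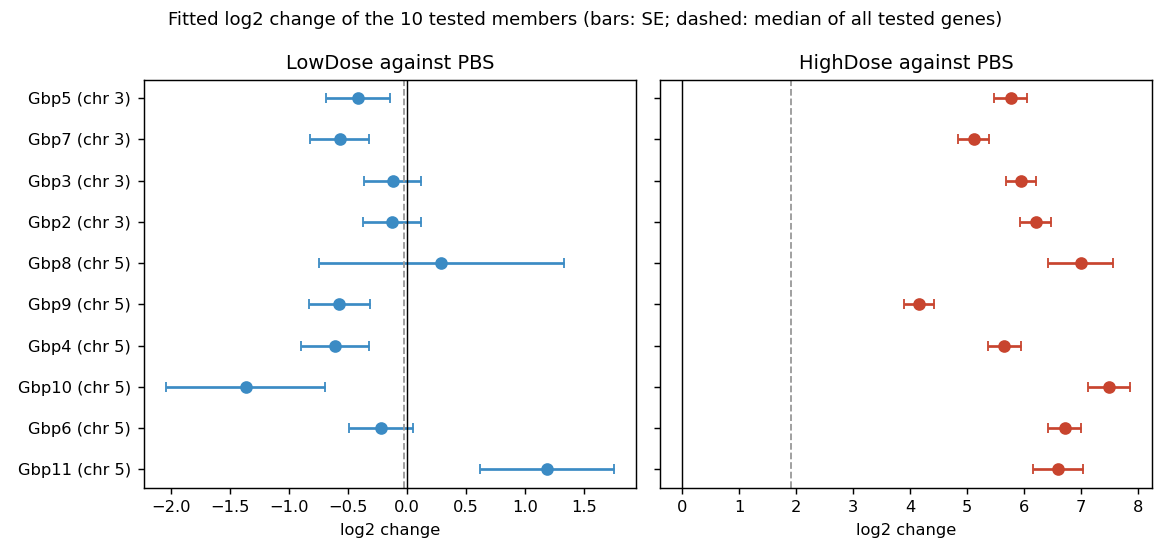
Fitted log2 change with SE of the 10 tested members in LowDose against PBS (left) and HighDose against PBS (right), with the median of all tested genes dashed. The LowDose values lie below 0 for 8 of 10 members and run from -1.37 for Gbp10 to 1.18 for Gbp11, with the dashed line at -0.03. The HighDose values run from 4.15 to 7.50, all to the right of the dashed line at 1.90.

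In 3 members every LowDose library lay below every PBS library, a pattern that 13.1% of all tested genes showed. Gbp9 was at 2.91, 4.45 and 3.05 CPM in LowDose, against 5.40, 5.18 and 4.93 CPM in PBS, a log2 change of -0.57 ± 0.26 (adjusted p = 0.324, edgeR). Gbp7 was at 4.55, 3.46 and 3.05 CPM in LowDose, against 6.38, 4.79 and 5.35 CPM in PBS, a log2 change of -0.57 ± 0.25 (adjusted p = 0.321, edgeR). The 2 genes differed from PBS by about the same amount on the log2 scale, and neither difference passed the adjustment. Gbp10 rested on few counts, with 5.71 estimated counts summed over LowDose against 15.1 over PBS (log2 change -1.37 ± 0.67, adjusted p = 0.420, edgeR). Gbp4 was at 1.31, 2.25 and 1.39 CPM in LowDose, against 2.78, 2.71 and 2.07 CPM in PBS, where LowDose replicate 2 overlapped the PBS range (log2 change -0.61 ± 0.29, adjusted p = 0.382, edgeR).

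Gbp11 had the largest positive value in LowDose, at 0.211, 0.944 and 0.321 CPM, against 0.273, 0.145 and 0.231 CPM in PBS (log2 change 1.18 ± 0.57, adjusted p = 0.393, edgeR). LowDose replicate 2 was the high library, and without it the log2 change was 0.27. The 4 members most abundant in HighDose overlapped between LowDose and PBS. Gbp2 was at 4.0, 5.39 and 3.69 CPM in LowDose and Gbp3 at 4.34, 4.95 and 4.38 CPM, each with a log2 change of -0.12 against PBS (SE 0.25 and 0.24). Gbp6 was at 2.02, 2.70 and 1.82 CPM in LowDose, with a log2 change of -0.22 ± 0.27, and Gbp5 at 2.44, 3.19 and 2.24 CPM, with -0.41 ± 0.27. Gbp8 had 4 counts in LowDose and 3 in PBS, and Gbp2b had 1 and 2, which is too few for a direction.

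The comparison of HighDose with LowDose uses the same HighDose libraries as that with PBS. Of the 10 tested members, 10 rose (edgeR's quasi-likelihood test with Benjamini-Hochberg adjustment), as did 88.1% of all tested genes. Here too Gbp8, Gbp10 and Gbp11 were tested through the HighDose libraries alone. The other 7 had a median log2 change of 6.18, against 1.88 over all tested genes, from 4.72 ± 0.27 for Gbp9 to 6.94 ± 0.29 for Gbp6. Gbp10 had the highest fitted value, 8.87 ± 0.41, and rests on 5.71 estimated counts summed over LowDose. Gbp2b had 43 counts in HighDose and 1 in LowDose, a ratio of 41.6 with a 95% counting interval of 7.08 to 1681.

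Levels of different genes can be compared only per length, so the make-up of the family is given in FPKM. In HighDose the order by mean FPKM was Gbp2 (140 ± 33.6, SD, n = 3), Gbp3 (125 ± 33.8), Gbp6 (78.0 ± 21.1), Gbp5 (61.6 ± 25.7), Gbp7 (38.8 ± 10.9), Gbp4 (37.7 ± 11.1), Gbp9 (21 ± 6.40), Gbp10 (13.0 ± 3.95), Gbp11 (8.07 ± 3.40), Gbp8 (2.88 ± 0.79) and Gbp2b (0.223 ± 0.180). The ranges of neighbours overlapped except between Gbp4 and Gbp9, between Gbp11 and Gbp8 and between Gbp8 and Gbp2b. Within libraries the order was steadier than the means. Each gene lay above the next in 3 of 3 HighDose libraries, except that Gbp2 exceeded Gbp3 in 2 and Gbp7 exceeded Gbp4 in 1. The HighDose libraries differed among themselves, with 10 of 11 members lowest in replicate 1 and 11 of 11 highest in replicate 3. The same held for 76.9% and 70.3% of all tested genes, and the listed genes together made up 3.90%, 5.21% and 6.04% of the library total in replicates 1 to 3.

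In PBS the order by mean FPKM differed below the leading pair. Gbp3 (1.90 ± 0.0321) and Gbp2 (1.89 ± 0.173) had overlapping ranges, followed by Gbp9 (1.23 ± 0.105), Gbp5 (1.12 ± 0.137), Gbp7 (1.07 ± 0.293), Gbp6 (0.717 ± 0.116) and Gbp4 (0.663 ± 0.178). Gbp11, Gbp10, Gbp8 and Gbp2b had means of 0.107, 0.07, 0.03 and 0.0133 FPKM. Neighbouring ranges in PBS overlapped or touched except between Gbp2 and Gbp9 and between Gbp4 and Gbp11. Gbp9 thus had rank 7 in HighDose and rank 3 in PBS, while Gbp6 had rank 3 in HighDose and rank 6 in PBS. Along the doses, the ratio of Gbp6 to Gbp9 in FPKM was 0.691, 0.478 and 0.584 in PBS, 0.848, 0.708 and 0.871 in LowDose, and 3.90, 3.71 and 3.61 in HighDose. In PBS and LowDose Gbp9 was the higher of the pair in each library, and in HighDose it was Gbp6.

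**Figure D3:**
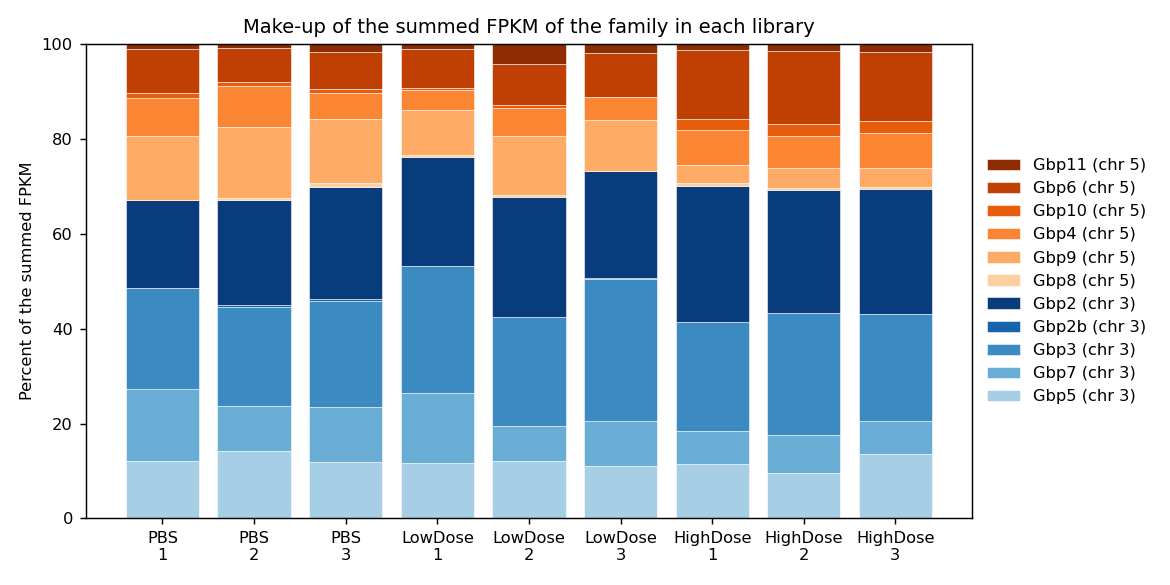
Share of each member in the summed FPKM of the family (percent, stacked to 100) in each library, with chromosome 3 members in blue and chromosome 5 members in orange. Gbp9 takes 3.76% to 4.14% in the HighDose libraries and 13.5% to 14.9% in the PBS libraries, and Gbp6 takes 14.5% to 15.3% in HighDose and 7.13% to 9.31% in PBS.

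Summed over the family, FPKM reached 526 ± 146 in HighDose, against 8.82 ± 0.420 in PBS (SD, n = 3 each), a 59.7-fold difference in means. The clusters had similar ratios of means. The chromosome 3 members summed to 366 ± 99.9 FPKM in HighDose, against 6.0 ± 0.153 FPKM in PBS, 61.0-fold, and the chromosome 5 members to 161 ± 46.4 FPKM, against 2.82 ± 0.270 FPKM, 57.0-fold. The chromosome 5 cluster thus held 30.5% ± 0.526 of the family's FPKM in HighDose and 31.9% ± 1.59 in PBS. In LowDose the family summed to 7.30 ± 1.05 FPKM, against 8.82 ± 0.420 FPKM in PBS, and the chromosome 5 share was 27.6% ± 4.27. Within the family the share of Gbp9 was 3.97% ± 0.19 in HighDose and 13.98% ± 0.82 in PBS, and that of Gbp6 was 14.8% ± 0.44 and 8.12% ± 1.11. Gbp7 took 7.37% ± 0.58 in HighDose and 12.1% ± 2.99 in PBS. These shares carry no test. By counts, the family held 0.161% of the library total in HighDose, against 0.00295% in PBS.

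How well the members can be told apart depends on their sequences. Non-whole counts can arise where reads are divided between similar genes. Of the 9 libraries, 8 had a non-whole count for Gbp6 and 8 for Gbp10. Gbp4 and Gbp11 had 3 each, Gbp8 had 2, Gbp3, Gbp7 and Gbp9 had 1 each, and Gbp2, Gbp5 and Gbp2b had 0. The coding sequences of Gbp6 and Gbp10 were 98.4% identical. A further gene, Gm43302, spans both in GENCODE M21, and its coding sequence was 99.9% identical to that of Gbp6. In the annotated transcripts (GENCODE M21), 73.5% of the 100-base windows of Gbp10 and 64.5% of those of Gbp6 also occur in another gene of the family or in Gm43302. For Gbp11 this was 5.13% and for Gbp8 4.39%, for Gbp9, Gbp4, Gbp3 and Gbp7 between 0.428% and 1.65%, and for Gbp2, Gbp5 and Gbp2b 0%. These shares depend on the window length. With windows of 50 and 150 bases they were 18.1% and 0% for Gbp8 and 8.05% and 0% for Gbp9. For Gbp10 they were 84.1% and 66.6%, and for Gbp6 70.7% and 59.1%.

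**Figure D4:**
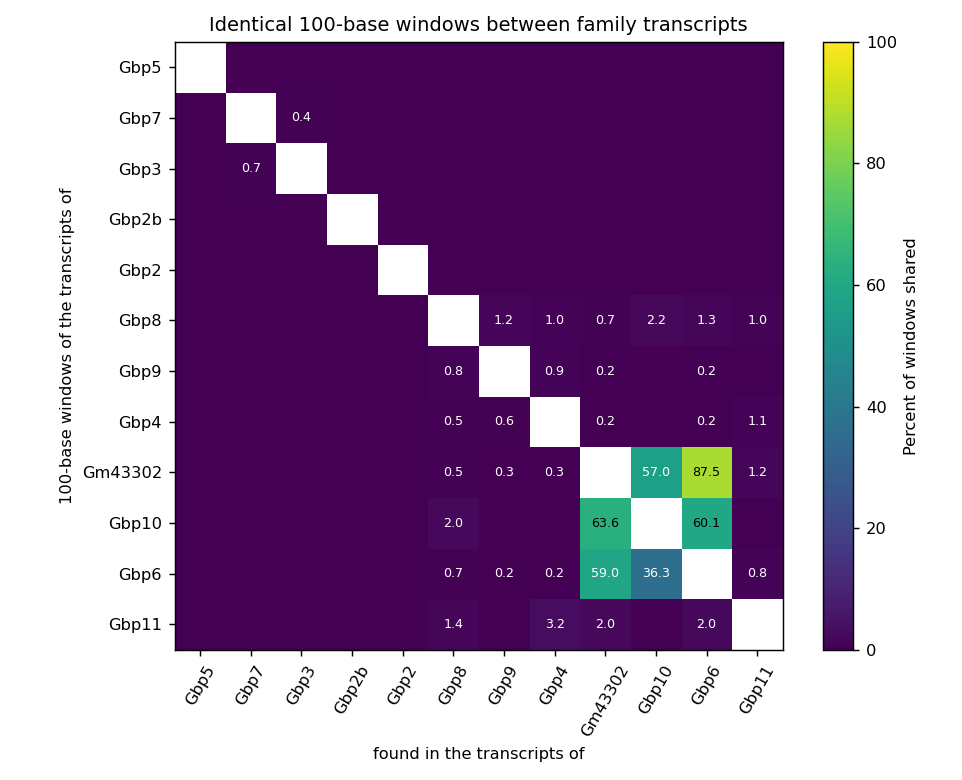
Percent of the 100-base windows in the transcripts of one gene (rows) that occur unchanged in the transcripts of another (columns). High values are limited to the block of Gm43302, Gbp10 and Gbp6, and the chromosome 3 genes share next to none.

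Short stretches of coding sequence show where these genes are alike and where they differ, while the placing of reads was not tested. They are given 5′ to 3′ on the coding (minus) strand of chromosome 5, with capitals for bases that differ from Gbp6. In exon 5 a stretch of 60 bases was the same in Gbp6, Gbp4 and Gbp9, and Gbp10 had 1 difference.
Gbp6, chr5:105280157-105280216: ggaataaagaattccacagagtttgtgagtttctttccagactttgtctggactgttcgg
Gbp10, chr5:105224356-105224415: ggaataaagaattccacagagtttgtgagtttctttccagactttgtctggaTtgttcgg
Gbp9, chr5:105094153-105094212: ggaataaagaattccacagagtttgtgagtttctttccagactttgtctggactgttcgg
In exon 10 a stretch of the same length was the one in which Gbp10 differed most from Gbp6, at 9 bases, while Gbp9 differed at 4.
Gbp6, chr5:105274211-105274270: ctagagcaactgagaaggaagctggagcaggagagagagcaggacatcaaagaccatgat
Gbp10, chr5:105218411-105218470: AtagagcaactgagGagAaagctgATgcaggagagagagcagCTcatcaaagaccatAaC
Gbp9, chr5:105081154-105081213: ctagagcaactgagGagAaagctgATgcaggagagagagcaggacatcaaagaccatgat
The split of counts between Gbp6, Gbp10 and Gm43302 is therefore uncertain. Gm43302 was at 8.58, 23.6 and 11.2 CPM in HighDose, against 0.203, 0 and 0 CPM in PBS. Its highest value was in HighDose replicate 2, whereas 11 of 11 members and 70.3% of all tested genes were highest in replicate 3. The sum of the 3 genes does not depend on the split among them, and it was 329 ± 89.5 CPM in HighDose, against 2.87 ± 0.349 CPM in PBS (SD, n = 3 each). The ratio of Gbp6 to Gbp10 in FPKM was 6.37, 5.91 and 5.89 in HighDose, against 10.6, 9.14 and 11.0 in PBS. In LowDose it was 18.7 and 18.75 in replicates 1 and 2, and undefined in replicate 3, where Gbp10 was at 0. These ratios rest on the split of counts, and those in PBS on only 5.04, 5.34 and 4.75 estimated counts of Gbp10. The annotated spans of Gbp8, Gbp9 and Gbp4 also overlap on the same strand.

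Interferons and the factors that read them were listed beside the family. Ifng, the gene for interferon gamma, had 0.831, 0.287 and 0.823 CPM in HighDose, and its 44 counts there stood against 1 count in PBS (ratio 39.9, 95% counting interval 6.81 to 1613). Ifnb1, the gene for interferon beta, had 0.831, 0.335 and 1.34 CPM in HighDose and 0 counts in PBS. Taking 3 counts over the PBS group gave a ratio of 17.2, which leaves out the counting error of the 57 HighDose counts. Ifng and Ifnb1 were lowest in HighDose replicate 2, whereas 10 of 11 Gbp genes were lowest in replicate 1, as were 76.9% of all tested genes. The order of the interferon genes rests on few counts, 19, 6 and 19 for Ifng and 19, 7 and 31 for Ifnb1. Both interferon genes were too low for the filter and are given without a test. Irf1, a transcription factor of the interferon gamma response, was at 109, 130 and 158 CPM in HighDose, against 4.58, 6.34 and 5.35 CPM in PBS (log2 change 4.60 ± 0.25, adjusted p = 9.02e-21, edgeR). Irf8, another such factor, had a log2 change of 2.60 ± 0.23, and of 0.91 with TMM.

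Of 11 genes of interferon gamma signalling, 7 were listed and 6 tested, and 6 rose in HighDose against PBS with a median log2 change of 3.07, except that with TMM scaling 4 rose, Jak2 fell and Irf2 was not called. Socs3, a feedback inhibitor of cytokine signalling, rose by 3.54 ± 0.27 on the log2 scale, and by 1.81 with TMM. Of the 11 genes of type I interferon signalling 7 were listed and 5 tested, and 5 rose (median 3.86), while with TMM 4 rose and Ifnar2 fell. The largest changes there were in Usp18, which restrains that pathway (7.06 ± 0.31), and Irf7 (6.19 ± 0.29). The immunity-related GTPases are another family of interferon-induced GTPases that act on the same vacuoles, and their list also holds Gvin1, a GTPase outside that family. Of the 13 genes of this list 9 were tested and 9 rose under both scalings, with a median of 5.63 with library totals. Iigp1 changed by 6.90 ± 0.31 and Tgtp2 by 6.07 ± 0.29, within the range of the Gbp genes. Gvin1 of the same list, named after its values were seen, changed by 3.96 ± 0.28, below the smallest tested Gbp change of 4.15. The median over all tested genes was 1.90 and 86.3% of them rose.

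**Figure D5:**
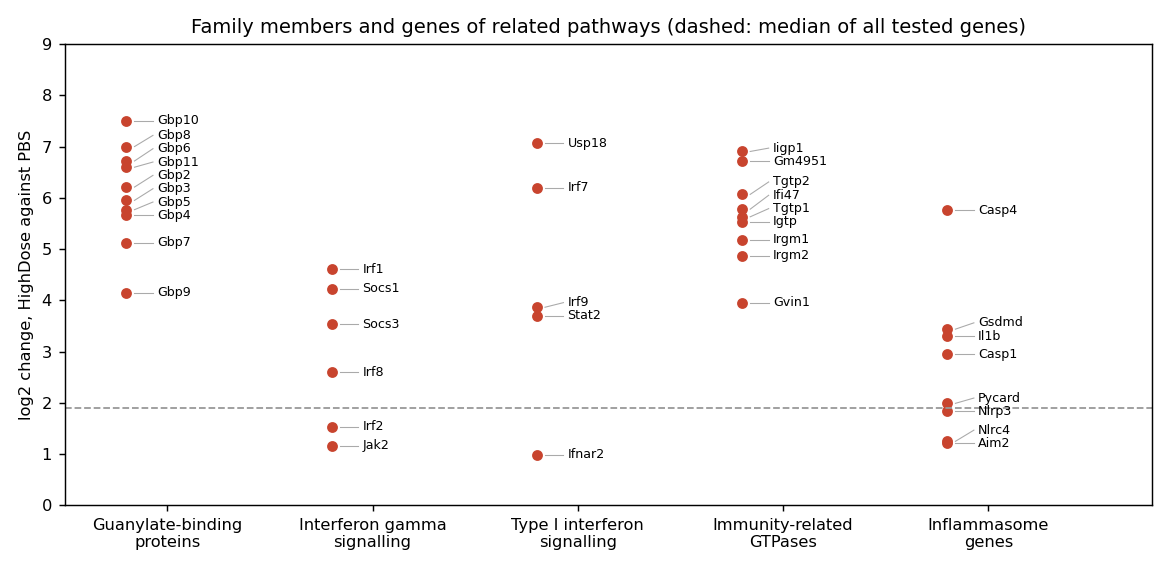
Log2 change in HighDose against PBS (library totals as scaling) of the 10 tested family members and of the tested genes of 4 related lists, with the median of all tested genes dashed at 1.90. The family and the list of immunity-related GTPases lie wholly above the dashed line, while the signalling and inflammasome lists also hold genes below it.

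Of 10 inflammasome genes linked to guanylate-binding proteins 8 were tested and 8 rose (median 2.47), while with TMM scaling 4 rose and Pycard, Nlrp3, Aim2 and Nlrc4 were not called. Casp4, the caspase that senses bacterial lipopolysaccharide inside cells, was at 7.57, 9.81 and 15.6 CPM in HighDose, against 0.164, 0.339 and 0.0922 CPM in PBS (log2 change 5.75 ± 0.46, adjusted p = 5.22e-15, edgeR). Gsdmd, whose product forms pores in the membrane once cut, was at 9.01, 13.5 and 12.1 CPM in HighDose, against 0.654, 1.26 and 1.24 CPM in PBS (log2 change 3.44 ± 0.33, and 1.74 with TMM). Of the 6 prenylation enzymes and the 8 genes of LC3 conjugation, which helps to place guanylate-binding proteins on membranes, 0 were among the listed genes. In LowDose against PBS, 0 genes of the interferon gamma, type I interferon and inflammasome lists were called (edgeR), but Irf7 of the type I list (log2 change -0.80, adjusted p = 0.104) was called lower with the replicate block (log2 change -0.78, adjusted p = 0.0182) and without PBS replicate 1 (-0.98, adjusted p = 0.0447). Of the immunity-related GTPases Tgtp1, named after its values were seen, fell (log2 change -1.47 ± 0.32, adjusted p = 0.00417, edgeR), and it was not called with TMM. Irf1 differed by 0.08 ± 0.23 on the log2 scale.

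The genes outside the family with the most similar pattern were ranked by the root mean square difference, over the 9 libraries, between their log2(CPM + 0.5) relative to PBS and the mean of the same over the tested members. Among 1512 genes the nearest were Isg20 (0.0947), Ddx58 (0.0978), Ddx60 (0.147), Ifi47 (0.154) and Ifi213 (0.186). The members' own distances from their mean ran from 0.206 for Gbp4 to 0.886 for Gbp8. The nearest genes were picked as the smallest of 1512 distances, whereas all tested members are included, so these ranges are not comparable. The added 0.5 CPM shrinks the differences of genes with low levels in PBS, so these distances depend on level as well as on change. Ifi213, at a mean of 0.0799 CPM in PBS, ranked near with a fitted log2 change of 8.09 ± 0.47 in HighDose against PBS. Gbp8, at 0.0469 CPM in PBS, was the farthest member with 7.0 ± 0.58. Isg20 encodes an exonuclease that degrades viral RNA, Ddx58 the RNA sensor RIG-I and Ifi47 an immunity-related GTPase. Isg20 was at 28.6, 40.1 and 52.7 CPM in HighDose, against 0.491, 0.436 and 0.553 CPM in PBS. Like 10 of 11 members and 76.9% of all tested genes, it was lowest in HighDose replicate 1. The differences were set over the same libraries and share their depth, so they describe likeness only.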

How the data were processed

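RNA of 9 libraries (3 each of PBS, LowDose and HighDose) was analysed from a deposited table. The authors deposited an estimated count for each gene and library, per the file headers. FPKM, which sets a count per kilobase of transcript and per 1e6 fragments, stands beside it in the deposited table. The build mm10 and the tools DESeq2 and edgeR are named without a role in the submitters' processing notes, with no aligner or counter given in the sources used here. Between 7.66% and 13.98% of the counts per library were not whole (tolerance 1e-06), and counts were rounded to whole numbers.

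Of the listed identifiers 1704 were found in GENCODE M21, and the deposited symbol differed from the GENCODE symbol for 303, so genes were taken by identifier. The total of each library was solved from the count, the FPKM and the length of genes with a single transcript (FPKM of at least 5, at least 100 counts, length of at least 600 bases). A floor of 3 counts is 0.126 to 0.164 CPM. Column sums are not depths here, and p-values are adjusted over the 1583 genes that passed filterByExpr (minimum count 10).

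An edgeR model (version 4.0.16, with limma 3.58.1 and R 4.3.3) of all 9 libraries, scaled to library totals and without a block, gave the quasi-likelihood test of each pair of groups at an adjusted p of 0.05. Each SE is approximate and was taken from the log2 change and the root of its F value. Alternatives were TMM and DESeq2 1.42.0 size factors, the DESeq2 Wald test, limma on log2(FPKM + 0.5), no filter, 1 CPM in 3 libraries, only the groups compared, rounding down, a replicate block and leaving out each library. Deviations of same-numbered libraries from their group means correlated at 0.246, 0.165 and 0.137 between LowDose and PBS, against -0.147 to 0.0133 for libraries of different number. These values are low and do not establish that the numbers pair these groups, and the labels do not say so. The block was therefore run as an alternative only, and the main tests do not use it. With the replicate block 0 members were called in LowDose against PBS, and 62 of all tested genes were, in place of 41.

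Named are the family, Ifng, Ifnb1, Irf1 and Irf8 whatever their values, of each list the 2 tested genes with the smallest p in HighDose against PBS, and the 5 nearest genes by pattern. One gene of this rule and of the interferon gamma signalling list is not reported here. Genes without a call under a scaling, markers and Gm43302 were named after their values were seen. The members and lists were chosen with earlier results of these data known. Promoter windows come from RefSeq and transcripts from GENCODE M21, and identity is the share of equal bases among aligned coding bases. The fit was also run on simulated counts, but the outcome is not reported here and is not used as support for the results. Tables were made with pandas 2.3.3 in Python 3.11.15, and plots with matplotlib 3.10.9.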

Additional observations from a re-analysis of the deposited data

How the results depend on the processing

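The 10 tested members stayed called higher in HighDose against PBS and against LowDose under all alternatives run, 11 without a filter, and 0 were called in LowDose against PBS. In the main fit 86.3% and 88.1% of all tested genes were called higher in these HighDose comparisons, and without a filter 1482 of 1710 against PBS. Gbp8, Gbp10 and Gbp11 were tested through HighDose alone, so their calls add no support. In HighDose against PBS the median log2 change of the 10 members was 4.36 with TMM and 4.39 with DESeq2 size factors, and 4.82 with limma on log2(FPKM + 0.5), which understates low genes. TMM turned the split of all calls in HighDose against LowDose to 565 higher and 461 lower, in place of 1394 and 112. In LowDose against PBS, 41 of all tested genes were called, 6 with TMM, 6 with DESeq2 size factors, 62 with the replicate block, 79 without LowDose replicate 1 and 26 without LowDose replicate 2, and the cause was not tested. The block changed no member's call. Same-numbered libraries correlated at 0.0687, -0.00571 and 0.151 between HighDose and PBS, and at 0.183, 0.0142 and 0.0833 between HighDose and LowDose. HighDose replicate 3 and LowDose replicate 2 correlated at 0.131, so pairing was not established there either. Leaving out 1 library, the chromosome 3 sum in HighDose ranged from 315 to 415 FPKM and the chromosome 5 sum from 138 to 184 FPKM. Depth limits Gbp2b, Gbp8, Gbp10 and Gbp11 outside HighDose, where they lie near the floor of 3 counts. As shares of summed counts in place of FPKM, 13 of 22 member shares moved by more than 1 SD, and that of Gbp9 was 5.69% in HighDose and 17.5% in PBS.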
